A study of Mus musculus with 15 samples.

Results

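The clustered histone genes of the mouse were taken as every protein-coding gene whose GRCm38 symbol starts with Hist1h, Hist2h, Hist3h or Hist4h, which gave 67 of the 54838 genes counted. They comprise 6 genes for the linker histone H1, 18 for H2A, 18 for H2B, 12 for H3 and 13 for H4. Of these, 54 lie in the Hist1 cluster on chromosome 13 (chr13:21715763-23934851, GRCm38), 10 in Hist2 on chromosome 3, 2 in Hist3 on chromosome 11 and 1 in Hist4 on chromosome 6. Their counts were read in RNA-seq libraries of gonocytes, the foetal male germ cells, sorted by FACS for tdTomato from E16.5 testes. The 3 control libraries carried Tex15+/- with Miwi2tdTom/+, and the 3 knockout libraries carried Tex15-/- with the same Miwi2tdTom/+ reporter, so that controls are heterozygous for Tex15 and both groups have 1 tagged Miwi2 allele. The Tex15- allele holds a CRISPR/Cas9 insertion in exon 5, was carried on from 1 founder animal and was kept on a mixed B6CBAF1/Crl and C57BL/6N background. The sources used here do not say how many foetuses went into a library, and p-values measure the spread between these libraries.

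Clustered histone genes supply most of the histone protein that packages newly replicated DNA, and in dividing cells their mRNAs accumulate in S phase and are destroyed at its end. H2A, H2B, H3 and H4 form the nucleosome core, and H1 binds the linker DNA between nucleosomes. Their mRNAs are the metazoan mRNAs that end in a conserved stem-loop, bound by the stem-loop binding protein SLBP, in place of a poly(A) tail. Male gonocytes at this stage are in mitotic arrest. The libraries were made by ribosomal RNA depletion, without selection for poly(A), so transcripts that end at the stem-loop were not removed by the preparation.

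The 3' stem-loop is shown because it is the feature that the symbols did not use and that nearly all members share. A stem of 6 perfect base pairs, starting with GG and ending with CC around a loop of 4 bases, was searched in the 200 bases after each stop codon. It was found in 65 of the 67 members and in 167 of 21685 other protein-coding genes (0.770%). Hist1h2an and Hist2h2be were the members without a match, which says only that this pattern is not in that window. The stem-loop began 21 to 58 bases after the stop codon, with a median of 30. Only 8 different sequences occurred. The H1, H2A and H2B genes and most H3 genes mainly carry the first form, with 41 members, and 9 members across the 4 types carry a form that differs in the loop. The H4 genes have their own stems. Examples read from GRCm38 follow, with the stem-loop in capitals.
Hist1h1b, chr13:21779837-21779852, minus strand: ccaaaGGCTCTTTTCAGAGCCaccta
Hist1h1t, chr13:23696525-23696540, plus strand: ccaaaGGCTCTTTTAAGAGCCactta
Hist1h3f, chr13:23544932-23544947, plus strand: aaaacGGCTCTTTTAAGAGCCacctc
Hist1h4d, chr13:23581950-23581965, plus strand: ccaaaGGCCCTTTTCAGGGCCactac
Hist1h4j, chr13:21735437-21735452, plus strand: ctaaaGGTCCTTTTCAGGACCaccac
In 27 of the 65 members the annotated gene runs more than 100 bases past the stem-loop, and the counts do not separate reads of stem-loop-ended transcripts from reads of longer ones.

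Promoters were read for motifs known from histone genes, and those of 2 H1 genes with different levels are printed. RefSeq promoter sequences of GRCm38.p6 were matched for 61 members, and the 250 bases before the start site were searched on both strands. The CCAAT box (CCAAT) was present in 50 of 61 members against 34.5% of all 27025 promoters, including all 6 H1, 17 H2A and 16 H2B promoters but 3 of 12 H4 promoters. The TATA box (TATAAA) was present in 29 members (47.5%, against 13.0% of all promoters). The octamer (ATTTGCAT) was found in 7 H2A and 6 H2B promoters only, against 1.61% of all promoters. Head-to-head H2A and H2B genes share promoter sequence, so the same octamer or CCAAT site can count for both genes. Hist1h2ah and Hist1h2bk, for example, hold the same octamer. The H1 box (AAACACA) was present in 5 of 6 H1, 2 of 17 H2A, 2 of 16 H2B and 0 H3 and H4 promoters, against 6.22% of all promoters. The last 120 bases before the start sites of Hist1h1b and of the testis H1 gene Hist1h1t are printed with matches to these 4 motifs in capitals.
Hist1h1b, chr13:21780626-21780745, minus strand: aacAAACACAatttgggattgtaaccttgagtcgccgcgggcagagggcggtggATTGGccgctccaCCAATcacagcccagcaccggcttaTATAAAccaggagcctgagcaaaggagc
Hist1h1t, chr13:23695691-23695810, plus strand: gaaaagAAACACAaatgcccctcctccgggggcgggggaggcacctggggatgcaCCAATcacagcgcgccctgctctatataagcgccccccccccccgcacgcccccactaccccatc
Both hold the H1 box and the CCAAT box, and the exact TATAAA letters are absent from Hist1h1t. They are absent from the 250 bases of Hist1h1c as well, a somatic linker histone gene whose levels, given below, were ordered like those of Hist1h1b in Tex15-/- replicates 2 and 3.

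The libraries held 4893265 to 5697020 gene counts. Tex15 was 1509, 1667 and 1664 CPM (counts scaled by TMM library sizes to a common total) in controls and 469, 230 and 249.3 in Tex15-/- libraries, a log2 fold change of -2.35 ± 0.23 (SE, n = 3 per group, edgeR quasi-likelihood adjusted p = 0.0112). It was lower in every library labelled Tex15-/-, as those labels say. Tex15-/- replicate 2 stood apart from the other libraries in the histone genes and in most lists of somatic testis cell markers. Replicate 3 did so to a smaller extent in the histone genes and in interstitial, Leydig and Sertoli markers. Values are therefore given for each library, and the histone sum also without each Tex15-/- library.

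Clustered histone mRNA was a small share of the RNA counted. The members took 2878, 2762 and 3005 counts in controls, which is 0.0528%, 0.0564% and 0.0540% of the gene counts. They took 2471, 8190 and 4225 counts in the Tex15-/- libraries, or 0.0493%, 0.144% and 0.0785%. Tex15-/- replicate 1 lay below all controls, so the groups overlapped. Replicate 2 lay far above all controls and replicate 3 less far above them.

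Coverage was uneven among the members. In all 6 libraries together 8 members had no count, 6 had 1 to 9 and 53 had 10 or more. The filter on low counts passed 37 members (6 H1, 5 H2A, 11 H2B, 5 H3 and 10 H4). Many members are near-identical copies, and reads with several alignments were not assigned to a gene, so counts of single members are uncertain. Of all windows of 72 bases in their exons (the read length after trimming), the median member had 70.9% at a single place in the genome among the 37 that passed and 27.8% among the 30 that did not. These windows stand for single reads, whereas the libraries are paired-end, so a mate may place a read from a shared window. No window was unique in 5 members, of which Hist1h2ap, Hist1h2br and Hist2h2aa2 had 0 counts, Hist1h2ao 2 and Hist1h2bq 28. The other members at 0 had from few to all windows unique, with 3.88% in Hist2h2aa1, 21.3% in Hist2h3b, 65.2% in Hist2h3c1, 89.5% in Hist2h2ab and 100% in Hist2h2bb. Hist2h2aa1, Hist2h3b, Hist2h3c1, Hist2h2ab and Hist2h2bb each overlap another annotated gene as well, so reads there may have been left out as ambiguous. Their 0 counts therefore do not show an absence of RNA. A total of 0 allows up to 3 counts (counting error only). By type the median share of unique windows was 99.2% for H1, 31.3% for H2A, 60.5% for H2B, 47.1% for H3 and 74.7% for H4.

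H4 mRNA made up 54.8% ± 2.06 (SD, n = 3) of the member counts in control gonocytes, H1 19.1% ± 1.47, H2B 18.3% ± 2.08, H3 4.23% ± 0.538 and H2A 3.66% ± 0.281. The share of unique windows also differed between types. Every H2A member overlaps a gene annotated on the opposite strand, and of the other types only Hist2h2bb, Hist2h3b and Hist1h4b do. As the strand setting of the counting is not known here, H2A reads may have been left out as ambiguous. The part of unique windows and of overlaps in this order was not tested. In controls the member with the most counts gave 55.1% of its type in H4, 36.1% in H3, 33.8% in H2A, 31.6% in H1 and 19.6% in H2B. Per kilobase of exon, Hist1h4d, an H4 gene, had 139, 150 and 145 CPM per kb in controls, and alone gave 55.1% of H4 counts and 30.1% of all member counts. Hist1h4c, another H4 gene, followed with 66.7 ± 9.26 CPM per kb (SD, n = 3). Both lay above every other member in each control library, whereas the H4 genes Hist1h4k with 47.6 ± 4.52 and Hist1h4n with 38.6 ± 8.53 overlapped. Hist1h4n has 7.80% of its windows unique, so its level per kb is uncertain.

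Among H2B genes Hist1h2bb (38.5 ± 6.43 CPM per kb), Hist1h2bj (29.4 ± 9.25) and Hist1h2bn (25.5 ± 3.07) were highest in controls, and each overlapped the next in the order. The leading H1 gene per kb was Hist1h1t, whose protein H1t is known from spermatocytes, with 28.6 ± 2.40, followed by the somatic linker histone genes Hist1h1e (17.0 ± 3.63) and Hist1h1c (10.8 ± 1.13). Before division by length, Hist1h1e was the highest H1 gene in controls, with a mean of 32.8 CPM against 26.1 for Hist1h1t. The order per kb depends on the annotated exons, which run 1153 bases past the stem-loop in Hist1h1e, 840 in Hist1h1c and 185 in Hist1h1t. Hist1h1e shares annotated sequence with Hist1h2be, so that reads there are ambiguous. The leading H2A genes per kb were Hist1h2ab (14.2 ± 1.91), Hist1h2ak (5.58 ± 0.859) and Hist1h2ae (4.26 ± 3.14), and the leading H3 genes Hist1h3e (10.02 ± 2.16), Hist1h3i (7.05 ± 0.893) and Hist1h3d (4.29 ± 1.72). These orders depend on annotated length too. Hist1h2ac, with 1.195 CPM per kb, has 2482 annotated exon bases, of which 2010 lie past its stem-loop. The testis pair Hist1h2ba and Hist1h2aa, which encode the H2B and H2A variants of germ cells, had 14.2 ± 9.65 and 4.06 CPM per kb.

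**Figure D1:**
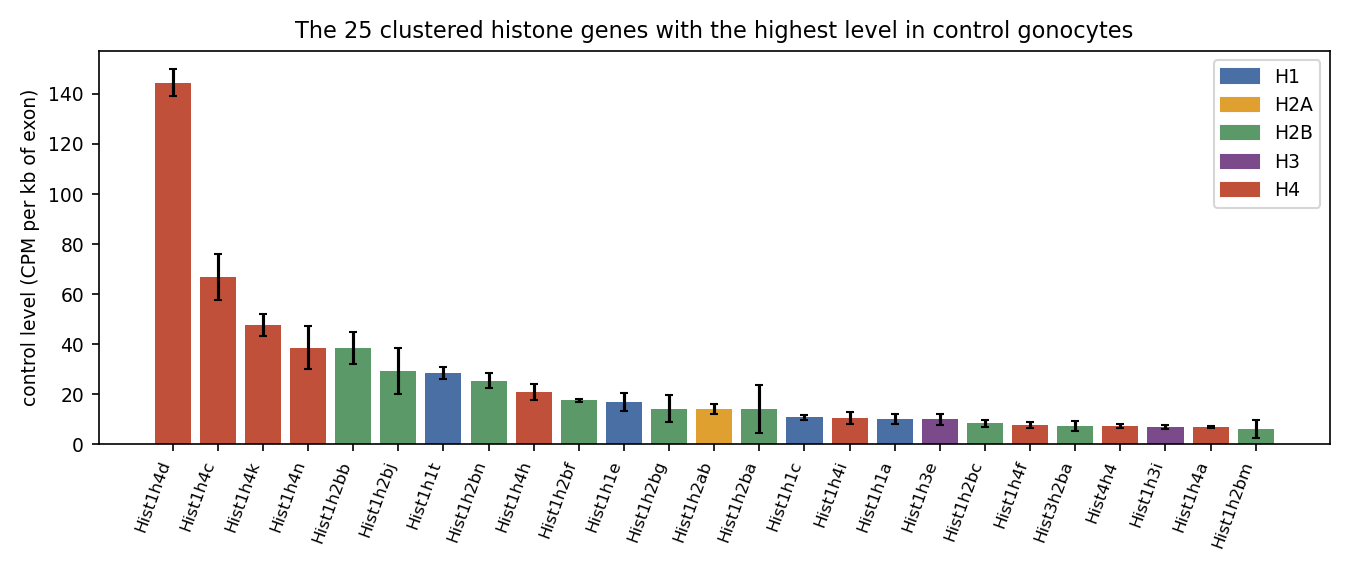
Mean level of the 25 highest clustered histone genes in the 3 control gonocyte libraries, in CPM per kb of exon, with bars coloured by histone type and error bars of 1 SD. Hist1h4d stands at 144 CPM per kb, and most genes from the third on overlap their neighbours.

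Of the members, 12 pairs of H2A and H2B genes lie head to head, with start sites 176 to 306 bases apart, and 1 further pair joins Hist1h2bh with Hist1h3f. In 10 of the 12 pairs the H2B gene had the higher control level per kb. Among these, Hist2h2be was close to 0, with 0.0701 CPM per kb against 0 for Hist2h2ac. The remaining pairs had no unique window in either gene. Hist1h2ap and Hist1h2br were both at 0, and Hist1h2ao and Hist1h2bq had 0.267 and 0.127 CPM per kb, so neither pair shows a higher H2A gene. Hist1h2bj had 29.4 CPM per kb and its partner Hist1h2ag 0.127, and Hist1h2bf had 17.6 and its partner Hist1h2ad 0.224. The H2A partner had fewer unique windows in Hist1h2ag (22.0% against 48.0%) and Hist1h2ad (34.3% against 40.0%). In Hist1h2aa, where every window is unique, the level was also lower than that of Hist1h2ba, with 4.06 against 14.2 CPM per kb. The H2A gene of each of the 12 pairs, Hist1h2aa included, overlaps a gene annotated on the opposite strand, and its H2B partner does not. The strand setting of the counting is not known here, so reads on such overlaps may have been left out as ambiguous. How far shared sequence and these overlaps set the differences was not tested.

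Knockout was then compared with control for the sum of each type. H1 was 109, 105 and 97.3 CPM in controls and 97.8, 573 and 220 CPM in Tex15-/- libraries. H3 was 19.5, 23.5 and 26.2 CPM in controls and 17.6, 106 and 49.1 CPM. H2B was 95.9, 90.2 and 113 CPM in controls and 92.8, 296 and 164 CPM. In these 3 types replicates 2 and 3 lay above every control and replicate 1 lay within or below them. H4 had the same pattern, with 285, 316 and 294 CPM in controls and 265, 476 and 349 CPM in Tex15-/- libraries. H2A was 20.8, 18.6 and 20.3 CPM in controls and 22.0, 37.4 and 21.9 CPM, above the controls in all 3 Tex15-/- libraries.

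Against the control mean, Tex15-/- replicate 2 had 5.51 times the H1 level, 4.58 times the H3, 2.98 times the H2B, 1.88 times the H2A and 1.59 times the H4 level. Replicate 3 had 2.12, 2.13, 1.65, 1.10 and 1.17 times in the same order, and replicate 1 had 0.941, 0.764, 0.932, 1.11 and 0.887 times. No sum passed a test. Two-sided exact permutation p-values were 0.30 for H1, 0.10 for H2A, 0.30 for H2B, 0.40 for H3 and 0.40 for H4, each 0.40 when adjusted over the 5 types, and 0.10 is the smallest p that 3 against 3 libraries can give. The sum of all members was 545 ± 12.6 CPM in controls and 929 ± 508 CPM in Tex15-/- libraries (SD, n = 3 each, exact permutation p = 0.40). The ratio of Tex15-/- to control means for this sum was 1.70, and it was 1.19 without Tex15-/- replicate 2, 1.82 without replicate 3 and 2.10 without replicate 1. Without both replicates 2 and 3, the 1 library left had 0.908 times the control mean.

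**Figure D2:**
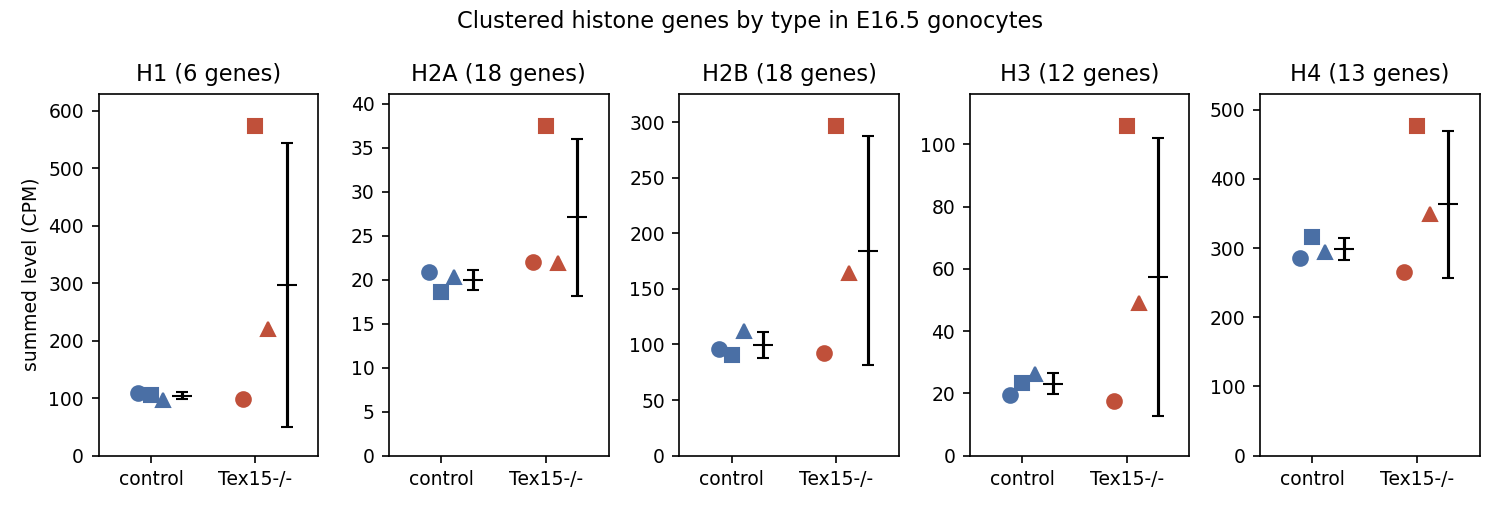
Summed level in CPM of each histone type in each gonocyte library, with circles, squares and triangles for replicates 1, 2 and 3, and the mean ± SD of each group in black. Tex15-/- replicate 2 is the highest library in all 5 panels, at 573 CPM for H1 against 97.3 to 109 in controls.

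The composition of the histone mRNA differed between the Tex15-/- libraries as well. H1 took 38.5% of the member counts in replicate 2, 27.3% in replicate 3 and 19.7% in replicate 1, against 17.7% to 20.6% in controls. H4 took 31.98%, 43.4% and 53.5% in the same libraries, against 53.4% to 57.1% in controls. For the shares of H1 and of H4 the exact permutation p was 0.20 each (0.50 adjusted over the 5 types). In replicate 1 both shares lay inside the control range.

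Gene by gene, no member passed an adjusted p under 0.01 with edgeR (0 of 37, against 0% of the 16311 genes tested), and DESeq2 called none either (0.0739% of its genes). With DESeq2 at an adjusted p under 0.05, Hist1h2bm, an H2B gene, was the one member called (adjusted p = 0.0252, against 0.222% of genes). At an unadjusted p under 0.05, edgeR gave 11 of 37 members, against 9.2% of all genes, and all 11 were higher in Tex15-/- libraries, against 6.05% of all genes. They were 5 H1, 3 H2B, 2 H4 and 1 H3 gene. The median log2 fold change was 0.69 over the 37 members, with a range from -0.29 to 2.86, and -0.00031 over all genes tested. The groups did not overlap in 6 members, all higher in every Tex15-/- library, against 6.51% of all genes, and in no member lower, against 6.68%.

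Single libraries differed more than the groups. Tex15-/- replicate 2 was above every control in 32 of 37 members (86.5%, against 35.3% of all genes), with a median log2 ratio to the control mean of 1.17. Replicate 3 was above every control in 25 members (67.6%, against 30.3% of all genes), with a median of 0.47. Replicate 1 was above every control in 6 members (16.2%, against 23.1% of all genes), with a median of -0.13. It was below every control in 12 members (32.4%, against 24.1% of all genes). Replicate 2 was below in 1 member (2.70%, against 36.5%) and replicate 3 in 6 (16.2%, against 30.6%). The order replicate 2, then 3, then 1 held in 26 of 37 members (70.3%), and in 25.03% of all genes. In all 25 members in which replicate 3 exceeded the controls, replicate 2 did so too.

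**Figure D3:**
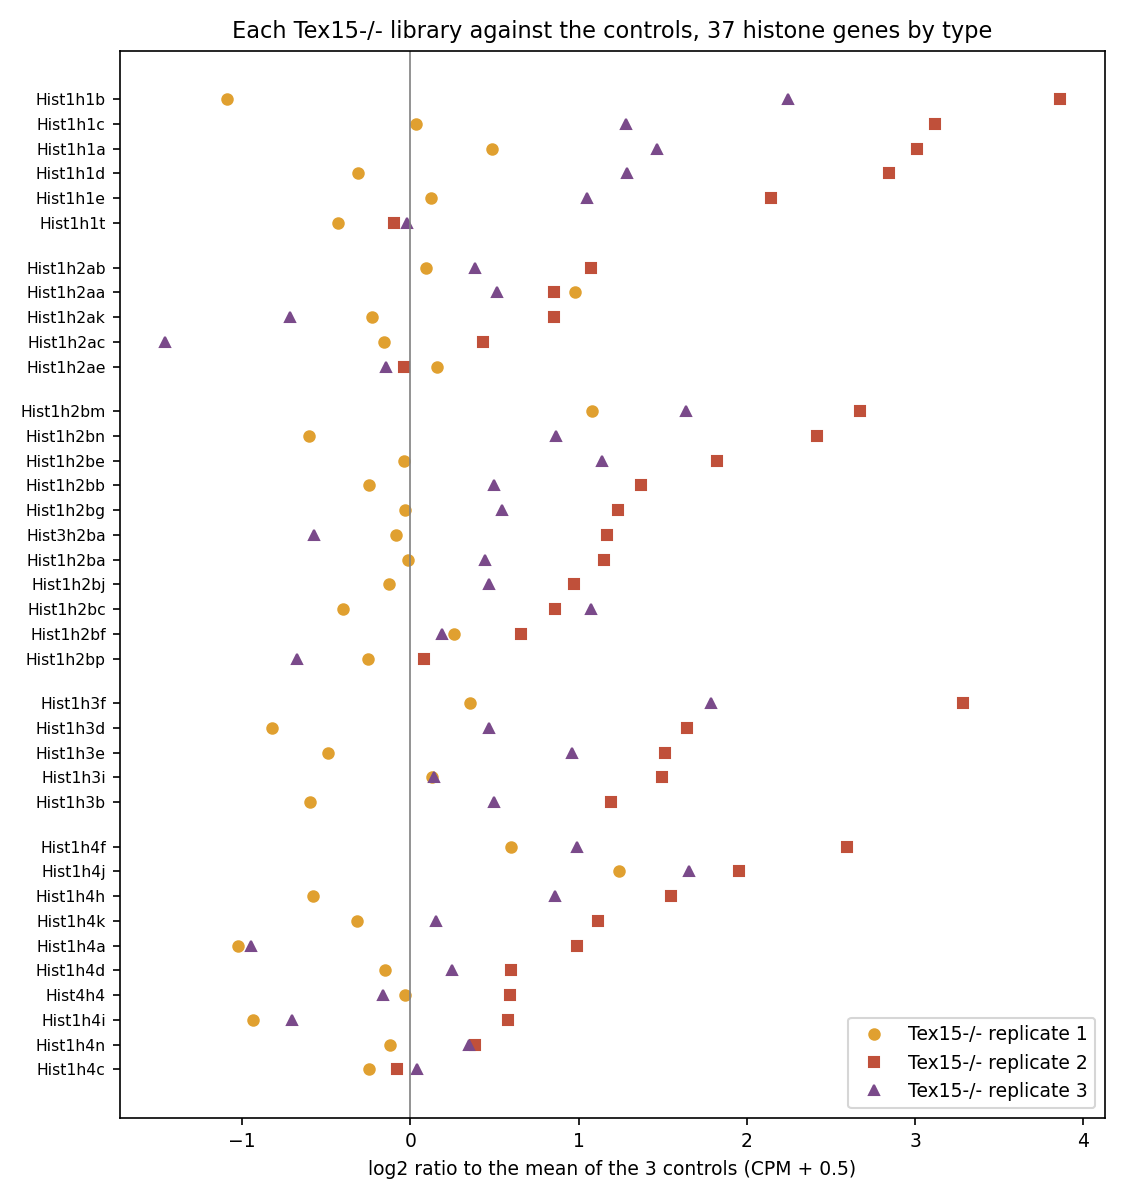
Log2 ratio of each Tex15-/- library to the mean of the 3 controls (on CPM + 0.5) for the 37 members past the filter, grouped by type from H1 at the top to H4 at the bottom. Squares for replicate 2 reach 3.86 in Hist1h1b, circles for replicate 1 have a median of -0.13, and triangles for replicate 3 lie above the circles and below the squares in 26 of the 37 members.

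By type, the median log2 fold change of the members past the filter was 1.94 for H1, 0.84 for H3, 0.67 for H2B, 0.25 for H4 and 0.15 for H2A, and the highest median belonged to the linker histones. Hist1h1b was 3.69, 4.41 and 3.85 CPM in controls and 1.60, 64.7 and 20.7 CPM in Tex15-/- libraries. Replicate 1 was below every control and replicates 2 and 3 far above. Its log2 fold change was 2.86 ± 0.86 (SE, edgeR adjusted p = 0.460), and 1.50 without replicate 2. Hist1h1c was 15.9, 18.8 and 15.8 CPM in controls and 17.2, 150 and 41.7 CPM in Tex15-/- libraries, so that replicate 1 lay within the controls. Hist1h1a was 7.74, 5.82 and 8.80 CPM in controls and 10.6, 63.6 and 21.5 CPM in Tex15-/- libraries, and here the groups did not overlap. Hist1h1e was 40.7, 29.9 and 27.7 CPM in controls and 35.7, 147 and 68.5 CPM in Tex15-/- libraries, with replicate 1 inside the control range.

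Hist1h1t did not follow the other H1 genes. It was 25.3, 24.5 and 28.6 CPM in controls and 19.2, 24.3 and 25.7 CPM in Tex15-/- libraries, so that the groups overlapped. The log2 fold change of Hist1h1t was -0.18 ± 0.18 (SE, adjusted p = 0.760). In replicate 2, the library in which Hist1h1b was highest, Hist1h1t was just below every control. Without Hist1h1t, a choice made after the values were seen, the H1 sum was 84.1, 80.6 and 68.7 CPM in controls and 78.6, 548 and 194 CPM in Tex15-/- libraries. That is 1.01, 7.05 and 2.50 times the control mean.

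Among H3 genes Hist1h3f was 1.11, 0.602 and 2.20 CPM in controls and 1.80, 17.1 and 5.71 CPM in Tex15-/- libraries, with replicate 1 inside the control range. Its log2 fold change was 2.63 ± 0.76 (SE, adjusted p = 0.460), and 1.51 without replicate 2. All 5 H3 genes past the filter were highest in replicate 2, and 0 of 5 exceeded the controls in replicate 1. Hist1h3e was 7.01, 10.4 and 7.70 CPM in controls and 5.81, 24.9 and 16.7 CPM in Tex15-/- libraries. Hist1h3d lost its direction without replicate 2, with a log2 fold change of 0.81 with all libraries and -0.04 without it.

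Among H2B genes Hist1h2bm was 1.48, 5.21 and 2.75 CPM in controls and 7.21, 22.7 and 10.8 CPM in Tex15-/- libraries. All 3 Tex15-/- libraries were above all controls, and the log2 fold change of 2.12 ± 0.52 (SE, edgeR adjusted p = 0.460) was 1.53 without replicate 2. Hist1h2bn was 8.48, 9.83 and 10.8 CPM in controls and 6.21, 54.0 and 18.1 CPM in Tex15-/- libraries, with replicate 1 below all controls. Hist1h2bb, the highest H2B gene, was 15.9, 20.9 and 22.0 CPM in controls and 16.4, 51.4 and 27.8 CPM in Tex15-/- libraries. The germ cell variant Hist1h2ba was 9.59, 2.41 and 4.40 CPM in controls and 5.41, 12.7 and 7.61 CPM in Tex15-/- libraries, and the groups overlapped.

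The lowest medians belonged to the H2A and H4 genes. The germ cell variant Hist1h2aa was 1.66, 1.80 and 1.28 CPM in controls and 3.61, 3.27 and 2.47 CPM in Tex15-/- libraries, a log2 fold change of 0.97 ± 0.49 (SE, adjusted p = 0.578). The groups did not overlap, although the counts behind them were low, and here replicate 1 was the highest library. Hist1h4d was 158, 170 and 165 CPM in controls and 148, 249.3 and 195 CPM in Tex15-/- libraries, a log2 fold change of 0.27 ± 0.16 (SE, adjusted p = 0.614). Hist1h4c was 46.1, 60.4 and 57.7 CPM in controls and 46.1, 51.8 and 56.1 CPM in Tex15-/- libraries, and no Tex15-/- library lay above the highest control. Hist1h4k was 14.4, 16.4 and 13.7 CPM in controls and 11.8, 32.7 and 16.6 CPM in Tex15-/- libraries. Hist1h4j, named after its values were seen, had the lowest unadjusted p of the members (0.00136, edgeR adjusted p = 0.460). It was 2.40, 2.01 and 1.10 CPM in controls and 5.01, 8.54 and 6.85 CPM in Tex15-/- libraries, which did not overlap.

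Below the filter, 22 members had counts. Replicate 2 was above every control in 16 of them, against 13.3% of all genes with counts below the filter. Replicate 3 was above every control in 10, against 20.3% of those genes, and replicate 1 in 5, against 25.2%. These shares were not matched for the counts of the members. A gene high in replicates 2 and 3 alone can also stay below the filter, so the shares are only a rough comparison. Hist1h3c, an H3 gene named after its values were seen, was 1.29, 1.20 and 1.28 CPM in controls and 0.802, 14.4 and 6.66 CPM in Tex15-/- libraries. All Hist2 genes together were 1.84, 0 and 1.28 CPM in controls and 1.40, 12.7 and 3.43 CPM in Tex15-/- libraries.

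The calls depended on Tex15-/- replicate 1. Without it, 10 of 46 members passed an adjusted p under 0.01 with edgeR, all higher, against 2.21% of all genes. These were Hist1h1a, Hist1h1b, Hist1h1c, Hist1h1d, Hist1h1e, Hist1h2bh, Hist1h2bm, Hist1h2bn, Hist1h3c and Hist1h3f. Hist1h2bh and Hist1h3c had not passed the filter with all libraries. They passed it here through the Tex15-/- libraries in which they were high, with 1, 5 and 3 counts in controls against 68 and 23 for Hist1h2bh and 7, 6 and 7 against 79 and 35 for Hist1h3c, so that 8 of the calls were of members tested with all libraries. Without replicate 2 none of 38 passed (against 0.0288% of all genes). At an unadjusted p under 0.05 there were 9, against 5.71% of all genes, of which 8 were higher and Hist1h4i, an H4 gene named after its values were seen, was lower, and the median log2 fold change over members was 0.22. Without replicate 3 none of 39 passed (11 at an unadjusted p under 0.05, all higher, against 6.63% of all genes), and the median was 0.74. Without the filter on low counts 13 of 59 members passed with all libraries, against 1.15% of all genes, and 10 of these were members past the filter.

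Markers of somatic testis cells were high in the same libraries. The summed interstitial markers (10 genes) were 82.4 to 96.0 CPM in controls and 78.4, 1927 and 462 CPM in Tex15-/- libraries, with all 10 above every control in replicate 2 and 9 in replicate 3. The Leydig markers (7 genes) were 21.2 to 63.97 CPM in controls and 38.7, 596 and 184 CPM, with 7 of 7 above every control in both replicates. The Sertoli markers (10 genes) were 48.5 to 55.3 CPM in controls and 42.5, 233 and 178 CPM, with 9 of 10 above every control in both. The histone sum and these sums were all highest or second highest in the same 2 libraries. Of all genes past the filter, 35.3% lay above every control in replicate 2 and 30.3% in replicate 3. The filter on low counts passed 8 interstitial, 6 Leydig and 4 Sertoli markers, so most Sertoli counts were low.

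Gata4, a transcription factor gene of testis somatic cells, was 5.01 to 7.15 CPM in controls and 6.41, 41.2 and 20.4 CPM in Tex15-/- libraries. Clu, the clusterin gene of Sertoli cells, was 32.7 to 37.2 CPM in controls and 28.5, 98.5 and 91.5 CPM. Star, the cholesterol carrier gene of Leydig cells, was 11.9 to 21.7 CPM in controls and 13.8, 97.8 and 38.1 CPM. All 3 were higher in Tex15-/- replicates 2 and 3 than in any control.

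The endothelial markers (8 genes) were 85.8 to 98.3 CPM in controls and 81.4, 278 and 90.8 CPM in Tex15-/- libraries, with 8 and 3 genes above every control in replicates 2 and 3. The blood and macrophage markers (12 genes) were 30.1 to 36.7 CPM in controls and 26.5, 70.7 and 85.1 CPM, with 10 and 11 genes above. The filter on low counts passed 7 endothelial markers and 4 blood and macrophage markers. Col1a1, a collagen gene of interstitial cells, was 22.9 to 30.1 CPM in controls and 23.0, 383 and 99.1 CPM in Tex15-/- libraries. Cyp17a1, a steroid enzyme gene of Leydig cells, was 2.40 to 16.2 CPM in controls and 11.2, 243 and 80.1 CPM. Of the defining markers, the Leydig gene Insl3 and the globin gene Hba-a1 were at 0 in every control. The germ cell markers (12 genes without Tex15) were 3261 to 3412 CPM in controls and 3164, 3261 and 3361 CPM in Tex15-/- libraries. Of the 11 tested, 3 (Dazl, Dppa3 and Sycp3) were lower and 0 higher at an unadjusted p under 0.05, against 3.15% and 6.05% of all genes, with a median log2 fold change of -0.09. Ddx4, the germ cell RNA helicase gene, was 682 to 755 CPM in controls and 667, 687 and 740 CPM in Tex15-/- libraries, and Mael, a piRNA pathway gene, was 640 to 676 CPM and 593, 728 and 703 CPM. The part of somatic cells in the histone levels was not tested, and in bulk RNA more cells of a type and more RNA per cell cannot be told apart.

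**Figure D4:**
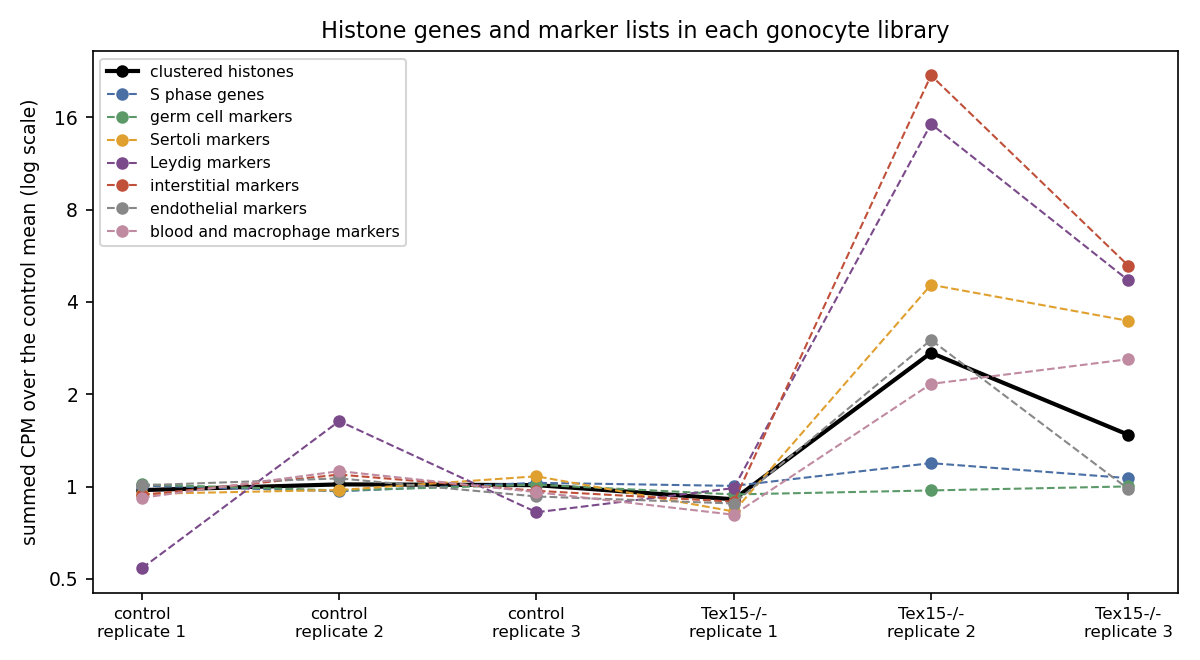
Summed CPM of the clustered histone genes and of 7 gene lists in each gonocyte library, divided by the mean of the 3 controls, on a log axis. The histone line rises to 2.73 in Tex15-/- replicate 2 and 1.48 in replicate 3, where interstitial, Leydig and Sertoli markers are also high, while germ cell markers stay near 1. The S phase sum rises less, to 2589 and 2313 CPM in replicates 2 and 3 against 2095 to 2233 CPM in controls.

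Genes of S phase were compared because the clustered histones are transcribed in that phase. Of 32 S phase genes, 31 were tested and 0 passed an adjusted p under 0.01 with edgeR, and 4 had an unadjusted p under 0.05, all higher, against 6.05% of all genes. Their sum was 2095 to 2233 CPM in controls and 2182, 2589 and 2313 CPM in Tex15-/- libraries, and 21 genes were above every control in replicate 2 (65.6%, against 35.3% of all genes). In replicate 3 it was 11 genes (34.4%, against 30.3%) and in replicate 1 10 genes (31.2%, against 23.1%). Pcna, the DNA polymerase clamp, was 19.4, 16.8 and 18.1 CPM in controls and 21.8, 38.7 and 25.1 CPM in Tex15-/- libraries, which did not overlap, a log2 fold change of 0.66 ± 0.23 (SE, edgeR adjusted p = 0.471). Lig1, DNA ligase 1, was 275, 277 and 279 CPM in controls and 285, 323 and 317 CPM in Tex15-/- libraries. The replicative helicase subunit Mcm3 was 185, 166 and 193 CPM in controls and 188, 249.3 and 221 CPM in Tex15-/- libraries. The members had a median log2 fold change of 0.69, and the S phase genes one of 0.14.

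The proliferation marker Mki67 was 39.3, 31.9 and 37.8 CPM in controls and 32.7, 242 and 85.1 CPM in Tex15-/- libraries. It was high in replicates 2 and 3 and within the controls in replicate 1. Of the 18 mitosis genes, 12 were above every control in replicate 2 (66.7%, against 35.3% of all genes), 10 in replicate 3 (55.6%, against 30.3%) and 3 in replicate 1 (16.7%, against 23.1%). Top2a, a topoisomerase gene, and Birc5, the survivin gene, both named after their values were seen, had the pattern of Mki67 with smaller differences. Top2a was 231, 261 and 298 CPM in controls and 263, 367 and 343 CPM in Tex15-/- libraries, and Birc5 was 11.2, 10.2 and 9.35 CPM and 10.02, 21.8 and 15.2 CPM. The 2 most abundant genes of the list did not share it. Cenpf, a kinetochore gene, was 1028, 1084 and 1186 CPM in controls and 1081, 650 and 737 CPM in Tex15-/- libraries, and Cenpe, a kinetochore motor gene, was 365, 437 and 445 CPM and 408, 429 and 341 CPM. The sum of the 18 mitosis genes was 2354 to 2666 CPM in controls and 2435, 2474 and 2237 CPM in Tex15-/- libraries, and 0 of 18 passed the threshold.

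Of the 25 factors that make histone mRNA 3' ends, degrade these mRNAs or form the histone locus body, none passed an adjusted p under 0.01 with edgeR. At an unadjusted p under 0.05, 1 was higher and 2 lower, together 3 of 25 against 9.2% of all genes, and the sum of the list was 1980 to 2129 CPM in controls and 2039, 2081 and 2035 CPM in Tex15-/- libraries. Slbp, which binds the stem-loop, was 34.8, 37.5 and 36.1 CPM in controls and 33.9, 42.9 and 38.6 CPM in Tex15-/- libraries. Npat, a coactivator of histone transcription, was 69.7, 70.2 and 74.96 CPM in controls and 75.1, 68.9 and 83.2 CPM in Tex15-/- libraries, and both genes overlapped between groups.

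Casp8ap2, which encodes the histone processing factor FLASH, was 121, 122 and 124 CPM in controls and 93.6, 95.8 and 95.1 CPM in Tex15-/- libraries. The groups did not overlap and the spread within each was narrow, with a log2 fold change of -0.36 ± 0.10 (SE, edgeR adjusted p = 0.460). Unlike Hist1h1b and the histone sum, it was alike in the 3 Tex15-/- libraries. The other genes with an unadjusted p under 0.05 were named after their values were seen. Snrpd3, a shared Sm protein gene, was 15.3, 15.2 and 18.3 CPM in controls and 22.8, 34.2 and 22.5 CPM in Tex15-/- libraries, and Tut7, a uridylyl transferase gene, was 68.2, 71.0 and 79.2 CPM and 65.7, 50.5 and 55.0 CPM. Neither overlapped between groups, and the log2 fold changes were 0.70 and -0.35 (edgeR adjusted p = 0.460 and 0.478). Cpsf3, the endonuclease of the processing complex, was 191 to 212 CPM in controls and 182, 201 and 211 CPM in Tex15-/- libraries, and Snrpe, another Sm protein gene, was 56.6 to 65.4 CPM and 53.9, 71.2 and 55.8 CPM.

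Replacement histones are also made outside S phase, mostly from polyadenylated mRNA, and H2afx is known to make a stem-loop-ended mRNA as well. Of 13, 12 were tested and 0 passed an adjusted p under 0.01 with edgeR, 2 had an unadjusted p under 0.05 (against 9.2% of all genes), and the median log2 fold change was 0.11. Their sum was 940 to 991 CPM in controls and 903, 1222 and 1065 CPM in Tex15-/- libraries. In replicate 2, 9 of the 13 were above every control (69.2%, against 35.3% of all genes). In replicate 3 it was 6 (46.2%, against 30.3%) and in replicate 1 it was 2 (15.4%, against 23.1%). H3f3b, a gene for H3.3, was 600, 547 and 557 CPM in controls and 550, 713 and 640 CPM in Tex15-/- libraries. H2afv, an H2A.Z gene, was 107, 106 and 101 CPM and 96.8, 106 and 105 CPM.

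The 2 replacement genes with an unadjusted p under 0.05 were named after their values were seen. H1f0, the linker histone H1.0, was 2.58, 6.62 and 5.86 CPM in controls and 3.01, 53.2 and 15.2 CPM in Tex15-/- libraries, the same order of libraries as the somatic H1 genes. H2afx, the H2A.X gene, was 8.48, 10.2 and 10.8 CPM in controls and 16.8, 20.9 and 17.9 CPM in Tex15-/- libraries, which did not overlap, a log2 fold change of 0.91 (edgeR adjusted p = 0.460).

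A pair of further lists were measured beside the members. Of the 20 histone chaperones tested, 0 passed the threshold with edgeR and 1 was higher and 1 lower at an unadjusted p under 0.05, together 2 of 20 against 9.2% of all genes. In replicate 2, 13 chaperones were above every control (65%, against 35.3% of all genes). In replicate 3 it was 12 (60%, against 30.3%) and in replicate 1 it was 3 (15%, against 23.1%). Npm1, a nucleolar histone chaperone, was 575 to 604 CPM in controls and 513, 651 and 651 CPM in Tex15-/- libraries, and Hat1, a histone acetyltransferase, was 496 to 527 CPM and 492, 661 and 584 CPM. Of 13 other RNAs mostly without poly(A), such as small nuclear and cytoplasmic RNAs, 9 were tested, and Rmrp, Rpph1 and Rnu11, named after their values were seen, were at 0 in every library. The sum of the list was 10340 to 13109 CPM in controls and 11348, 7664 and 10143 CPM in Tex15-/- libraries. None of the 9 passed the threshold, and 1 (Rny3) was lower at an unadjusted p under 0.05. Rn7sk, the 7SK RNA, made up most of the sum in every library and was 8417, 9618 and 10441 CPM in controls and 9067, 5141 and 7961 CPM in Tex15-/- libraries, and the small cytoplasmic RNA gene Rny3 was 77.1, 106 and 143 CPM and 76.1, 86.8 and 76.9 CPM.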

How the data were processed

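RNA-seq of FACS-sorted E16.5 gonocytes was analysed in 3 control and 3 Tex15-/- libraries (RiboGone depletion, SMARTer Stranded low-input kit, 75 bp paired-end). The authors aligned reads to GRCm38 with HISAT2, removing the first 3 bases, and deposited raw counts (whole numbers for each Ensembl identifier) made with HTSeq 0.11.1. The submitters' notes also name DESeq2 1.26.0. The methods state a release for the HISAT2 index, but the strand setting and the release of the annotation used for counting were not given in the sources used here, so overlapping genes are uncertain. Rows for reads assigned to no gene (61.3% to 67.3% of each table) were left out. This share was 64.3% to 65.2% in controls and 67.3%, 61.3% and 62.9% in Tex15-/- replicates 1, 2 and 3. Identifiers were named from GENCODE M21, and 3 pseudogenes were left out. The members and lists were chosen with earlier results of these data known.

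Groups were tested by edgeR 4.0.16 in R 4.3.3 (TMM, filterByExpr with a minimum count of 10 and total of 15, quasi-likelihood test, Benjamini-Hochberg adjustment, threshold 0.01) and alternatively with DESeq2 1.42.0. Sums were compared by two-sided exact permutation. CPM used TMM library sizes, and levels per kb the union of exons. On simulated data for this comparison (16358 genes), 31% of genes changed by a log2 of 1 and 99% of those changed by 2 were recovered at the threshold. The simulation gave every gene and library the same fixed dispersion. The log2 SD of the histone sum was 0.034 in controls and 0.80 in Tex15-/- libraries. These shares therefore do not say how often a change of the members would be called. Named genes were the 3 highest per type, any with an adjusted p under 0.05, the 5 largest changes, the germ cell variants, 6 set genes, and of each list the 2 highest and any called. Depth was 4893265 to 5697020 gene counts. Replicate counts differed beyond sampling noise (chi-square per degree of freedom 3.17 to 19.8). Small RNA tables name no gene, and repeat and P20 tables hold no member, so these were not used here.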

Additional observations from a re-analysis of the deposited data

How the results depend on the processing

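The count of members called was 0 with edgeR and 0 with DESeq2, total counts without TMM factors, an adjusted p under 0.05 and the replicate block. It was 13 with no filter beyond a total above 0 and ranged from 0 to 10 when 1 library was left out, with 10 only without Tex15-/- replicate 1. Of the replacement histones 1 (H1f0) was called with no filter, and 0 to 1 with 1 library left out, while S phase genes and 3' end factors had 0 called under all 11 alternatives. The log2 ratio of the summed members was 0.77, from 0.26 (without Tex15-/- replicate 2) to 1.09 (without Tex15-/- replicate 1), and 0.62 with the replicate block. With 1 library left out it ranged from 0.62 to 1.95 for H1, 0.14 to 0.59 for H2A, 0.37 to 1.23 for H2B, 0.54 to 1.76 for H3 and 0.04 to 0.48 for H4, and all stayed positive. Under the other alternatives these sums moved by less than the pooled SD of both groups on the log2 scale. For all members this was 0.56, with 0.034 in controls and 0.80 in Tex15-/- libraries, and the move under the replicate block was larger than the SD of the controls alone.

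Without Tex15-/- replicate 2 the log2 fold change reversed for Hist1h2ak (-0.571, from there to 0.501 over the libraries left out), Hist1h3d (-0.0352, to 1.26) and Hist1h4k (-0.0587, to 0.747), and with the replicate block for Hist1h2ak (-0.0173). Hist1h2ae was -0.01 and turned to 0.0184 with no filter, 0.178 with the replicate block and 0.0109 with DESeq2. Over the libraries left out it ranged from -0.337 to 0.783, positive when control replicate 1 or either of the Tex15-/- replicates 2 and 3 was removed. The causes were not tested. Same-numbered libraries did not deviate together (correlations -0.14, -0.04 and 0.00), so these values show no pairing by number. With so few libraries, and with Tex15-/- replicate 2 far from the others, they cannot exclude one. The planned count of small RNA reads on members was not run, since those tables name no gene. Depth limits members under about 10 counts, and shared sequence limits members with few unique windows. Overlap with genes on the opposite strand may limit all H2A members.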
